A study of Mus musculus with 6 samples.

Results

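The genes of the cell division cycle were followed in FITC-challenged ear skin of CLEC4C-DTR mice and of littermate controls. They were given as a list of 44 genes: 18 that act at the start of DNA replication (S phase), 24 that act in G2 and mitosis, and the general proliferation markers Mki67 and Top2a. A probe set assigned to 1 gene symbol was found for 43 of the 44, among 19938 genes on the array, and the brightest probe set over the 6 arrays stood for each gene. The expression of Ccnb1, one of the mitotic cyclins, was not analysed here. All values are log2 values, so that a difference of 1 is a 2-fold change, and all differences are CLEC4C-DTR minus control.

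The CLEC4C-DTR mice carried 1 copy of the CLEC4C-DTR transgene (genotype CLEC4C-DTR/+, 3 mice), and the littermate controls lacked it (3 mice). CLEC4C is a gene of human plasmacytoid dendritic cells, and DTR, the receptor for diphtheria toxin, makes cells that express it sensitive to that toxin. Toxin was injected into the mice of both groups, 200 ng each on days -1, 1, 3 and 5, so that only the transgene differed by design. Mice were 10 to 12 weeks old. Both groups were sensitised on shaved abdominal skin with 100 µL of 0.5% FITC (fluorescein isothiocyanate, a reactive dye used as a contact allergen) on days 0 and 2 and challenged with 20 µL on the right ear on day 6. Each array held total RNA of the whole skin of 1 FITC-treated ear of 1 mouse, so replicates are separate animals, numbered here as in their labels. Neither the strain nor the time between challenge and collection is given in the sources used here. Solvent-treated ears and transgenic mice without toxin were not analysed here. An effect of the transgene alone and one of toxin in transgenic mice therefore cannot be told apart. Whether a difference between the groups was present without challenge was not tested. Keratins of the epidermis were bright on every array, with Krt5 at 11.94 to 12.23 in CLEC4C-DTR skin and 12.20 to 12.34 in control skin.

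A cell that divides first copies its DNA and then separates the copies. In G1 the cyclin-dependent kinases release E2F transcription factors, which switch on genes for the MCM helicase, the nucleotide supply and the replication fork. Later, the MuvB complex with B-Myb and FoxM1 switches on the genes of G2 and mitosis, which build the spindle, hold sister chromatids under the spindle checkpoint and drive the exit from mitosis. In skin the dividing cells are mainly basal keratinocytes and the matrix cells of growing hair follicles. Lymphocytes and some macrophages can divide as well, while mature neutrophils do not.

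The promoters of the 2 classes are read by different factors, and the letters bound by these factors were looked up in the windows from 250 bases before to 50 bases after each gene's start (RefSeq, build GRCm38.p6). Windows were at hand for 36 members. The members without one were Mcm4, Gins2, Ccne2, Ccna2, Aurkb, Kif20a, Tpx2 and Foxm1. The motifs were the CHR (cell cycle genes homology region, the MuvB site, TTTGAA), the CCAAT box (CCAAT, bound by NF-Y) and the E2F site (TTTCCCGC, TTTGGCGC, TTTCGCGC or TTTGCCGC), each on both strands. The windows below belong to 3 mitotic members that rose and have a window, Plk1, Ccnb2 and Cenpa, and to Mcm3, a replication gene that rose. The windows run 5′ to 3′ along the gene's own strand, with CHR, CCAAT box and E2F letters in capitals.
Plk1, chr7:122159185-122159484, plus strand: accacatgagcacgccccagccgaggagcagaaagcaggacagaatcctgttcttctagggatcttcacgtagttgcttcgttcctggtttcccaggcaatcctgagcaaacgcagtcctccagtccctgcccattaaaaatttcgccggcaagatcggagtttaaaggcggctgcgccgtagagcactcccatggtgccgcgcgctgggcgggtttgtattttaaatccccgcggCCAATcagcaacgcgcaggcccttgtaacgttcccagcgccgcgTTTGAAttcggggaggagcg
Ccnb2, chr9:70421505-70421804, minus strand: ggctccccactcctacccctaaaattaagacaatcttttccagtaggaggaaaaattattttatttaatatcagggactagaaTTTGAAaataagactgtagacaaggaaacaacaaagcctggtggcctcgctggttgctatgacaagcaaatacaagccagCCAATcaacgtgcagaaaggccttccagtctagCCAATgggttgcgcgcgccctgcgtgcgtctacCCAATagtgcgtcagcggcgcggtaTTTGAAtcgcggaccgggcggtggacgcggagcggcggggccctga
Cenpa, chr5:30666636-30666935, plus strand: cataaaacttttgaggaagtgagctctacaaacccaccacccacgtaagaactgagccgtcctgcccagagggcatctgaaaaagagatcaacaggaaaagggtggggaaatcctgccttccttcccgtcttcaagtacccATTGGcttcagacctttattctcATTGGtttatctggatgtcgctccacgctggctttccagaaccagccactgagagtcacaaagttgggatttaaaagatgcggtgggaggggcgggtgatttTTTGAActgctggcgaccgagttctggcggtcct
Mcm3, chr1:20820263-20820562, minus strand: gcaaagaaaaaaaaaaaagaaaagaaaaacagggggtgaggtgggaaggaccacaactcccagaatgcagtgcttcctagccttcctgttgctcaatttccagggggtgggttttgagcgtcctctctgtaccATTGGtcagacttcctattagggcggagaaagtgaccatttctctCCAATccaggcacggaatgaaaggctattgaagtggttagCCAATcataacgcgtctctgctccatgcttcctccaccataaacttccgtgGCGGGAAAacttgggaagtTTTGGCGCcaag

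The Plk1, Ccnb2 and Cenpa windows each showed a TTTGAA between 4 and 30 bases after the gene's start, with CCAAT or its reverse ATTGG before the start, and no E2F letters. Ccnb2 held another TTTGAA far upstream. The Mcm3 window showed CCAAT boxes before the start, a pair of E2F strings after it, and no TTTGAA. A split of this kind was seen over the members, though not in each of them. A CHR was present in 13 of 19 G2 and mitosis windows (68.4%), in 2 of 15 S phase windows (13.3%) and in 18.1% of the windows of all 27025 genes. All 13 of those G2 and mitosis windows also held a CCAAT box, and all 13 had a CHR that began within 50 bases of the start, a range chosen after the positions were seen. Such a nearby CHR was found in 1 of 15 S phase windows and in 4.92% of all windows. E2F letters stood in 6 of 15 S phase windows (40%), in 1 of 19 G2 and mitosis windows (5.26%) and in 2.32% of all windows. Rrm2 and Ccne1, S phase members that rose more than Mcm3, held no E2F letters. CCAAT boxes were frequent in both classes, in 16 of 19 G2 and mitosis windows (84.2%) and 10 of 15 S phase windows (66.7%), against 37.9% of all windows. Mki67 and Top2a both held CHR and CCAAT letters. In the members' windows, 2 motif occurrences shared bases with another motif. These are matches of letters and not measured binding.

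**Figure D1:**
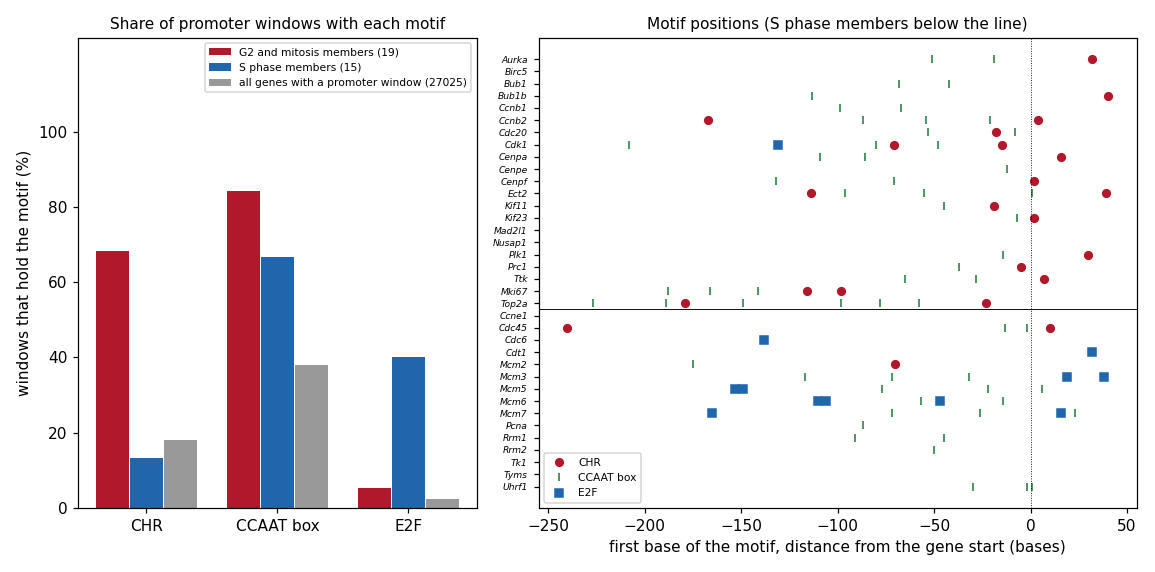
Left, the percentage of promoter windows (250 bases before to 50 after the start) that hold each motif, for the 19 G2 and mitosis members (red), the 15 S phase members (blue) and all 27025 genes (grey). Right, the distance in bases of the first base of each motif from the gene's start, with each member on a row. CHR points gather around the start of G2 and mitosis genes (68.4% of windows), and E2F points lie in S phase genes (40% of windows) and in 1 G2 and mitosis gene, Cdk1.

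In a limma fit over all genes, 9 of the 43 measured members passed an adjusted p of 0.05, and all 9 were higher in the challenged ears of CLEC4C-DTR mice. The other 34 did not pass. The 9 were Rrm2, Ccne1 and Mcm3 of S phase, Plk1, Cenpa, Ccnb2, Aurkb and Foxm1 of G2 and mitosis, and Top2a. They make up 20.9% of the members, while 9.32% of all genes passed, 5.01% that rose and 4.31% that fell. An unadjusted p under 0.05 was found for 26 members, every one of them higher in CLEC4C-DTR skin, and for 27.3% of all genes (12.2% higher). A higher mean in CLEC4C-DTR skin was found in 42 members, against 41.8% of all genes, and a lower one in 1, against 58.2%. No member reached the 2-fold difference named in the study's design, while 1.67% of all genes passed and rose by that much and 0.376% fell by it. The values of all 3 CLEC4C-DTR mice lay above those of all 3 controls in 28 members (65.1%), against 14.0% of all genes, and lay below in 0 members, against 19.0%.

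The calls changed when single mice were left out, and so did the calls over all genes. Each such fit also rested on fewer mice. Calls lost for that reason and calls lost through the mouse left out cannot be told apart. Of all genes 1858 passed with every array, 108 without CLEC4C-DTR mouse 3 and 67 without control mouse 3. It was 466 without CLEC4C-DTR mouse 2, 167 without control mouse 1, 1219 without control mouse 2 and 2617 without CLEC4C-DTR mouse 1. Leaving out CLEC4C-DTR mouse 3, limma called 0 members, with 4 S phase and 15 G2 and mitosis members at an unadjusted p below 0.05. Leaving out control mouse 3, limma called 0 members too, with 5 and 16 at such a p. Rrm2 alone passed in the absence of CLEC4C-DTR mouse 2 or of control mouse 1, and Rrm2 and Ccne1 passed in the absence of control mouse 2. Leaving out CLEC4C-DTR mouse 1, 17 members passed. With all 35556 probe sets tested together, named or not, 95 passed. There limma called 0 members, with 7 S phase and 17 G2 and mitosis members at an unadjusted p below 0.05. In whole skin, more dividing cells and more of these RNAs per cell cannot be told apart.

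**Figure D2:**
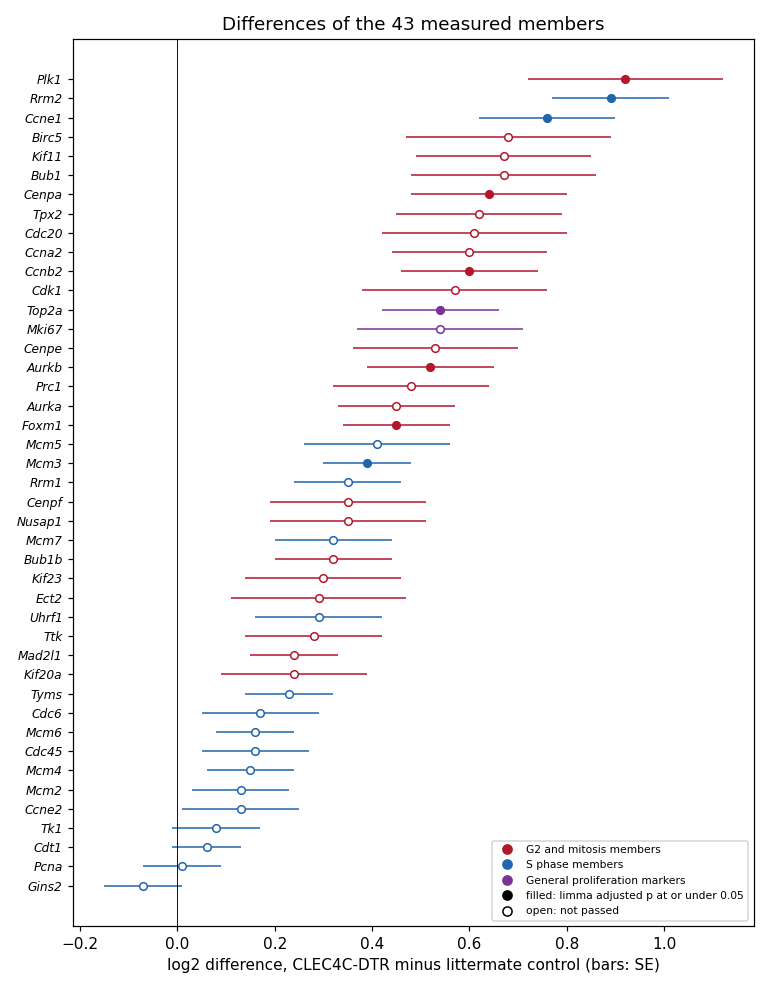
The log2 difference of each of the 43 measured members, CLEC4C-DTR minus littermate control, with limma's SE as bars (n = 3 mice each). Red points are G2 and mitosis members, blue S phase members and purple the general markers, filled where the adjusted p was at or under 0.05. Plk1 (0.92) and Rrm2 (0.89) stand at the top and Gins2 (-0.07) at the bottom.

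Top2a, the topoisomerase that untangles chromosomes and is most abundant from late S phase to mitosis, had log2 values of 9.10, 9.03 and 9.49 in CLEC4C-DTR skin, against 8.64, 8.66 and 8.69 in control skin. The groups were well apart, and the controls lay close together (log2 difference 0.54, SE 0.12, adjusted p = 0.0355). A second, dimmer Top2a probe set did not show this, with a difference of -0.14, and with both averaged Top2a differed by 0.20 and did not pass. Mki67, which codes for the Ki-67 protein coating mitotic chromosomes, had 8.37, 8.34 and 9.0 in CLEC4C-DTR skin, against 7.98, 7.95 and 8.15 in control skin. The groups did not overlap, but CLEC4C-DTR mouse 3 was well above the other mice, and the difference of 0.54 (SE 0.17) did not pass (adjusted p = 0.0898).

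Of the 18 S phase members, 3 rose (16.7%, against 5.01% of all genes) and 15 did not pass. An unadjusted p under 0.05 was found for 7, all higher, against 12.2% of all genes. The median difference of the 18 was 0.17 (log2, 1.12-fold), against -0.04 over all genes. CLEC4C-DTR values lay wholly above control values in 9 of the 18, against 14.0% of all genes.

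Rrm2 codes for the small, cell cycle-regulated subunit of ribonucleotide reductase, the enzyme that makes deoxynucleotides. It had log2 values of 7.94, 8.16 and 8.22 in CLEC4C-DTR skin, against 7.02, 7.32 and 7.32 in control skin. The lowest CLEC4C-DTR mouse was 0.62 above the highest control, the widest gap of any member, and Rrm2 was 1.86-fold higher (log2 0.89, SE 0.12, adjusted p = 0.0116). Rrm1, the large subunit, had 8.60, 8.69 and 8.96 in CLEC4C-DTR skin and 8.40, 8.39 and 8.40 in control skin. These groups were apart too, with a smaller difference (0.35, SE 0.11) that did not pass (adjusted p = 0.0755). The other enzymes of nucleotide supply differed by 0.23 for Tyms, thymidylate synthase (adjusted p = 0.132), and by 0.08 for Tk1, thymidine kinase (adjusted p = 0.643). Both Tk1 probe sets gave small differences, 0.08 and 0.10.

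Ccne1 codes for cyclin E1, which with its kinase Cdk2 drives entry into S phase. Its log2 values were 6.77, 7.08 and 7.34 in CLEC4C-DTR skin, against 6.24, 6.31 and 6.37 in control skin. All CLEC4C-DTR mice were above all controls, and Ccne1 was 1.69-fold higher (log2 0.76, SE 0.14, adjusted p = 0.0212). Its close relative Ccne2 did not pass, with 6.78, 6.79 and 7.18 in CLEC4C-DTR skin and 6.90, 6.77 and 6.69 in control skin. There only CLEC4C-DTR mouse 3 exceeded the controls (log2 0.13, adjusted p = 0.555). Without it the Ccne2 difference was -0.0021.

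The helicase that unwinds DNA at the fork, made of Mcm2 to Mcm7, showed small differences of 0.13 to 0.41 over its 6 subunits. Mcm3 was the only subunit that passed, with 7.81, 7.61 and 7.71 in CLEC4C-DTR skin, against 7.42, 7.32 and 7.23 in control skin (log2 0.39, SE 0.09, adjusted p = 0.037). Here CLEC4C-DTR mouse 1 was the highest mouse. Mcm5 had the largest difference, 0.41 (SE 0.15, adjusted p = 0.133), with 7.74, 7.57 and 8.18 in CLEC4C-DTR skin and 7.38, 7.54 and 7.34 in control skin. The groups barely separated, and CLEC4C-DTR mouse 3 stood apart. Mcm7 differed by 0.32 (adjusted p = 0.13), with CLEC4C-DTR mice just above the controls. Mcm2, Mcm4 and Mcm6 overlapped between groups and differed by 0.13 to 0.16.

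The 4 members that load the helicase at origins or join it there differed by -0.07 to 0.17, and none passed (9.32% of all genes did). Cdt1, a loading factor, had 7.08, 7.07 and 7.09 in CLEC4C-DTR skin and 7.0, 7.02 and 7.05 in control skin (log2 0.06, adjusted p = 0.666). Cdc6, its partner in loading, differed by 0.17, Cdc45, part of the active helicase, by 0.16, and Gins2, of the GINS complex, by -0.07, the only member with a lower mean in CLEC4C-DTR skin. Pcna, the sliding clamp of DNA polymerase, had 11.10, 11.00 and 10.95 in CLEC4C-DTR skin and 11.07, 10.97 and 10.98 in control skin. Its groups overlapped in full (log2 0.01, adjusted p = 0.935), and its second probe set gave the same picture. Uhrf1, which guides maintenance of DNA methylation behind the fork, differed by 0.29 (SE 0.13, adjusted p = 0.19).

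All 23 measured G2 and mitosis members had a higher mean in CLEC4C-DTR skin, with differences from 0.24 to 0.92. Of these, 5 rose (21.7%, against 5.01% of all genes) and 18 did not pass. An unadjusted p under 0.05 was found for 17, against 12.2% of all genes that were higher at such a p. The median difference was 0.52 (1.44-fold). In 17 of 23 (73.9%) the CLEC4C-DTR values all lay above the control values, against 14.0% of all genes.

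Plk1, the kinase that drives entry into mitosis and spindle assembly, had the largest difference of all members. Its log2 values were 6.59, 6.81 and 7.43 in CLEC4C-DTR skin, against 6.11, 6.03 and 5.94 in control skin. Every CLEC4C-DTR mouse was above every control, at unequal heights, and Plk1 was 1.89-fold higher (log2 0.92, SE 0.20, adjusted p = 0.0304). In the whole table, 457 genes had a larger rise in mean. Aurkb, the kinase of the chromosomal passenger complex, had 7.24, 7.35 and 7.72 in CLEC4C-DTR skin and 6.87, 6.84 and 7.04 in control skin (log2 0.52, SE 0.13, adjusted p = 0.0476). The centrosomal kinase Aurka differed by 0.45 (SE 0.12, adjusted p = 0.0618), with 7.09, 7.08 and 7.50 in CLEC4C-DTR skin and 6.73, 6.86 and 6.75 in control skin. Neither Aurora kinase overlapped between the groups.

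Foxm1, the transcription factor that drives many of these genes, was higher by a similar step. It had 6.75, 6.92 and 7.09 in CLEC4C-DTR skin, against 6.33, 6.56 and 6.52 in control skin (log2 0.45, SE 0.11, adjusted p = 0.0471). Cdk1 and its cyclins differed by 0.57 to 0.60. Cyclin B2, coded by Ccnb2, had 8.40, 8.39 and 8.91 in CLEC4C-DTR skin, against 7.88, 8.01 and 8.0 in control skin, and was 1.52-fold higher (log2 0.60, SE 0.14, adjusted p = 0.0403). Cyclin A2, coded by Ccna2, had 8.50, 8.50 and 9.07 in CLEC4C-DTR skin and 8.0, 8.03 and 8.24 in control skin. Its groups did not overlap, and its difference of 0.60 (SE 0.16) just missed the threshold (adjusted p = 0.0558). Cdk1, the kinase of mitosis, had 7.12, 7.55 and 7.94 in CLEC4C-DTR skin and 7.11, 6.92 and 6.87 in control skin. CLEC4C-DTR mouse 1 was level with the highest control there (log2 0.57, SE 0.19, adjusted p = 0.0966).

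At the centromere, Cenpa, the histone H3 variant that marks it, had 7.14, 7.51 and 7.76 in CLEC4C-DTR skin, against 6.96, 6.69 and 6.85 in control skin. The groups were apart, and Cenpa was 1.56-fold higher (log2 0.64, SE 0.16, adjusted p = 0.0442). Birc5 (survivin, of the passenger complex) had 7.81, 7.79 and 8.51 in CLEC4C-DTR skin and 7.09, 7.38 and 7.60 in control skin. Its difference was among the larger ones (0.68, SE 0.21), but both groups were spread widely and it did not pass (adjusted p = 0.0812). The kinetochore motor Cenpe differed by 0.53 (adjusted p = 0.0909) and Cenpf, a kinetochore protein, by 0.35 (adjusted p = 0.188).

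None of the 5 genes of the spindle checkpoint and its target passed (9.32% of all genes did). In 4 of the 5 all CLEC4C-DTR values lay above all control values, against 14.0% of all genes. The kinase Bub1 had 6.07, 6.37 and 6.90 in CLEC4C-DTR skin and 5.63, 5.80 and 5.89 in control skin (log2 0.67, SE 0.19, adjusted p = 0.0674). Cdc20, which activates the anaphase-promoting complex once the checkpoint is met, had 6.97, 6.99 and 7.62 in CLEC4C-DTR skin and 6.77, 6.30 and 6.67 in control skin (log2 0.61, SE 0.19, adjusted p = 0.0871). In both genes the CLEC4C-DTR mice were all higher but uneven. Bub1b, Ttk and Mad2l1, other checkpoint components, differed by 0.32, 0.28 and 0.24.

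Of the 7 genes of the spindle and of cytokinesis none passed either (9.32% of all genes did). In 3 all CLEC4C-DTR values lay above all control values, against 14.0% of all genes. Kif11, the motor that pushes spindle poles apart, had 7.17, 7.64 and 7.91 in CLEC4C-DTR skin and 6.79, 6.90 and 7.03 in control skin (log2 0.67, SE 0.18, adjusted p = 0.0537). Tpx2, a spindle assembly factor that activates Aurora A, differed by 0.62 (SE 0.17, adjusted p = 0.0619) and Prc1, which bundles the midzone microtubules, by 0.48 (SE 0.16, adjusted p = 0.102). These 3 were the genes without overlap. The microtubule binder Nusap1 and the cytokinesis genes Kif23, Ect2 and Kif20a overlapped between groups and differed by 0.24 to 0.35.

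The differences of S phase and mitotic members were set side by side. The S phase median was 0.36 below that of G2 and mitosis (-0.36, log2). All 23 G2 and mitosis differences were above the S phase median, and 12 of 23 exceeded 0.5, against 2 of 18 in S phase (Rrm2 and Ccne1). In 11 of 18 S phase genes the difference was below that of the lowest mitotic gene. Set against the mean of the controls, the list mean of G2 and mitosis was 0.24, 0.41 and 0.84 in CLEC4C-DTR mice 1, 2 and 3, and -0.03, -0.03 and 0.05 in the controls. The S phase list mean was 0.24, 0.17 and 0.37 in the same CLEC4C-DTR mice, and 0.00, -0.00 and -0.00 in the controls. Mouse 1 thus had the same shift in both classes, while mice 2 and 3 had a larger mitotic shift. The G2 and mitosis list mean minus that of S phase was -0.63 (SD 0.23) in CLEC4C-DTR mice. In controls it was -0.87 (SD 0.05), a difference of 0.24. CLEC4C-DTR mouse 1, at -0.86, lay within the control range of -0.90 to -0.81. No test of this contrast was made, since the members were chosen with results of these data known. With each array left out in turn the difference of medians was -0.42 to -0.21, farthest from 0 in the absence of CLEC4C-DTR mouse 1 and nearest in that of CLEC4C-DTR mouse 3.

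**Figure D3:**
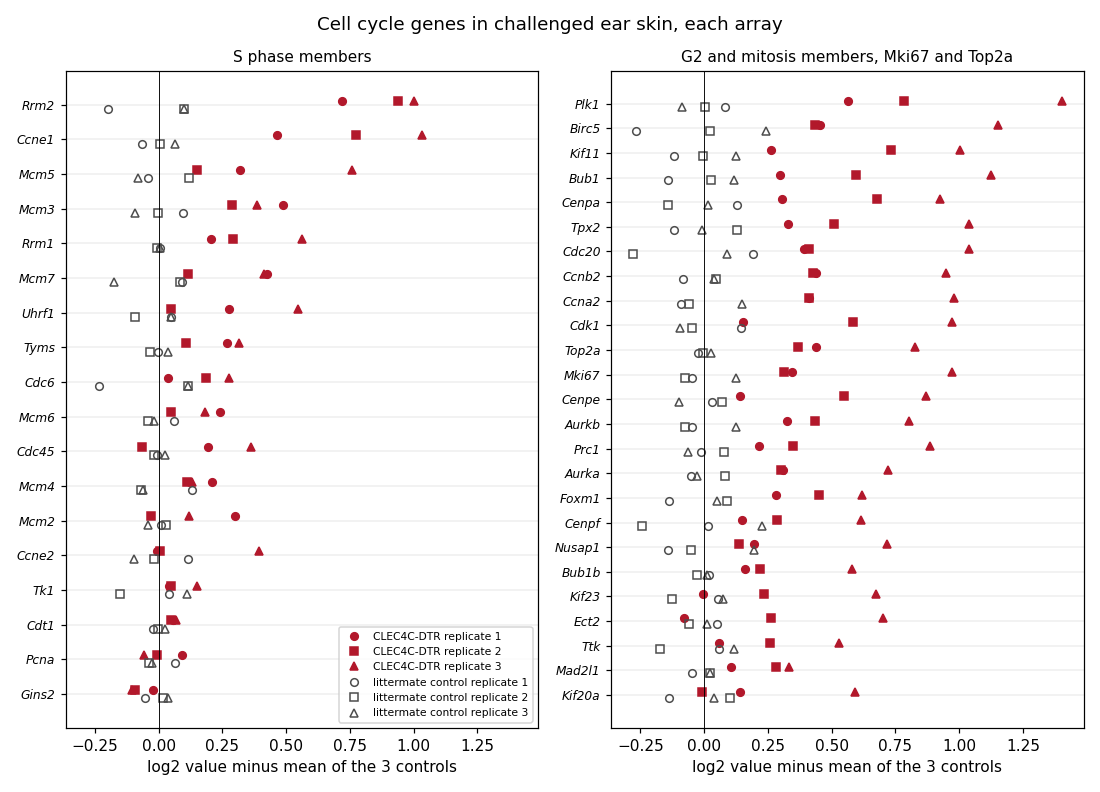
Each member on every array, as log2 value minus the mean of the 3 controls: S phase members left, G2 and mitosis members with Mki67 and Top2a right, ordered by difference. Filled red symbols are CLEC4C-DTR mice and open grey symbols littermate controls, with 1 symbol shape per mouse number. The red triangle of CLEC4C-DTR mouse 3 is the highest point in all 23 G2 and mitosis rows and in 11 of 18 S phase rows.

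CLEC4C-DTR mouse 3 stood apart in the mitotic genes. It had the highest value of all 6 arrays in 23 of 23 G2 and mitosis members and in 11 of 18 S phase members, against 14.5% of all genes. Among the CLEC4C-DTR mice alone it was highest in 30.3% of all genes. Among the 2790 genes whose CLEC4C-DTR values all lay above control it was highest in 34.7%. CLEC4C-DTR mouse 1 was the lowest of its group in 18 of 23 G2 and mitosis members. The spread between CLEC4C-DTR mice was wide, with a median SD of 0.33 (log2) for G2 and mitosis members, against 0.12 in controls. For S phase members it was 0.13 in CLEC4C-DTR mice and 0.07 in controls, and over all genes 0.12 and 0.10. Leaving out CLEC4C-DTR mouse 3, the G2 and mitosis median difference was 0.36 and that of S phase 0.15.

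Markers of cells that may divide in skin were set beside these values. Activated keratinocyte markers, such as Krt6a, Krt16 and Krt17, were higher in CLEC4C-DTR skin in all 8 genes measured. Of the 8, 7 rose (87.5%, against 5.01% of all genes). The mean of this list was 1.57, 2.39 and 2.45 above the controls' mean in CLEC4C-DTR mice 1, 2 and 3. Mice 2 and 3 were thus nearly level. Of 10 basal keratinocyte markers 1 fell, Krt15 (4.31% of all genes fell), and 9 had lower means (58.2% of all genes had). In 5 of the 10 all CLEC4C-DTR values lay below all control values, against 19.0% of all genes. Krt14, a main keratin of the dividing layer, was the only 1 without a lower mean (log2 0.02). It had 12.06, 12.03 and 12.22 in CLEC4C-DTR skin and 12.14, 12.01 and 12.09 in control skin. Of 16 markers of hair matrix and inner root sheath limma called 0, against 9.32% of all genes. An unadjusted p below 0.05 was found for 0, against 27.3% of all genes. In mean 14 were lower (58.2% of all genes were). These markers were dim, with a median level of 5.50 (log2) against 6.48 over all genes, so that a change could be missed.

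Among leukocyte lists, 8 of 10 monocyte and macrophage markers rose (80%, against 5.01% of all genes). The list means of these markers were 0.89, 1.12 and 1.28 in CLEC4C-DTR mice 1, 2 and 3. Their control values were spread, at -0.23, 0.24 and -0.02. Of 10 neutrophil markers 7 rose (70%, against 5.01% of all genes), with list means of 1.02, 2.09 and 1.96. T cell markers rose in 2 of 8 genes, Cd2 and Icos (25%, against 5.01% of all genes). All 8 had a higher mean (41.8% of all genes had). In 7 of the 8 all CLEC4C-DTR values lay above all control values (87.5%, against 14.0% of all genes). The T cell list mean was highest in mouse 2, at 0.44, 0.86 and 0.48. Of 7 early myeloid precursor markers limma called 0, against 9.32% of all genes. An unadjusted p below 0.05 was found for 1, Cd34, which was lower (log2 -0.40), against 27.3% of all genes. In mean 5 of the 7 were lower (58.2% of all genes were) and 2 higher. Mpo and Prtn3 differed by -0.19 and -0.18, and Kit and Cebpe by 0.12 and 0.05, all with overlap between the groups. This list too was dim, with a median level of 5.30 against 6.48 over all genes. The part of these cells in the mitotic shift was not tested.

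**Figure D4:**
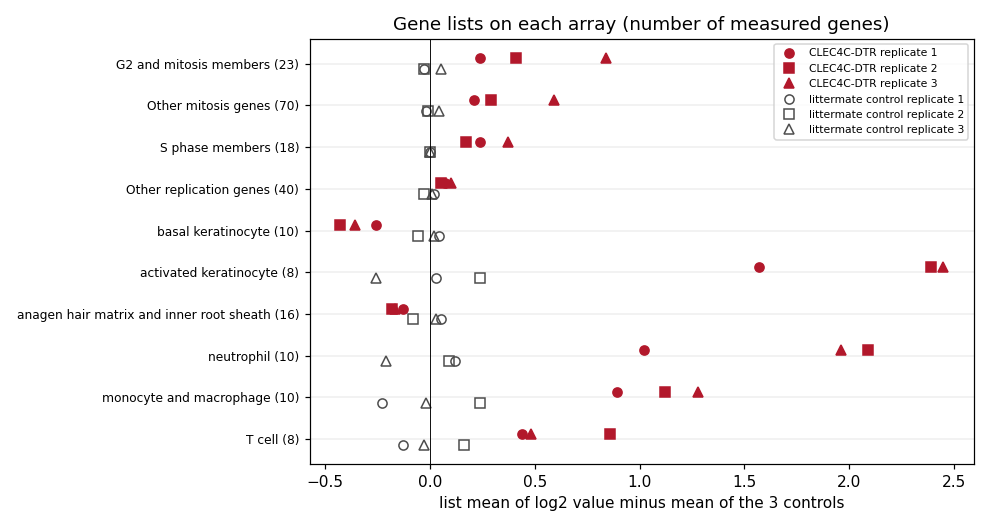
List means on every array, as log2 value minus the mean of the 3 controls, with the number of measured genes in brackets. Filled red symbols are CLEC4C-DTR mice and open grey symbols littermate controls. The CLEC4C-DTR mice are spread in the G2 and mitosis list (0.24, 0.41 and 0.84), and other replication genes lie near 0. Among the CLEC4C-DTR mice, mouse 1 is lowest in the activated keratinocyte, neutrophil, monocyte and macrophage and T cell lists. It is also lowest of them in the lists of mitosis genes.

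Further genes of the same pathways were set beside the members. Of 70 other mitosis genes 18 rose (25.7%, against 5.01% of all genes), 52 did not pass, and 66 of 70 had a higher mean, with a median difference of 0.38. Incenp, the scaffold of the passenger complex that holds Aurkb, had 7.63, 7.64 and 7.90 in CLEC4C-DTR skin, against 6.96, 7.18 and 6.99 in control skin (log2 0.68, SE 0.11, adjusted p = 0.0156). Ska3, which couples kinetochores to microtubules, had 6.27, 6.46 and 6.82 in CLEC4C-DTR skin and 5.69, 5.78 and 5.61 in control skin (log2 0.82, SE 0.14, adjusted p = 0.0178). Both were free of overlap by a wide margin. Cenpn, which binds Cenpa nucleosomes, rose by 0.61 (adjusted p = 0.0178) and the Cdk1 binding protein Cks2 by 0.68 (adjusted p = 0.0223). This count too changed with single mice, as the count over all genes did. It was 23 in the absence of CLEC4C-DTR mouse 1, 5 in that of CLEC4C-DTR mouse 2 or control mouse 2, and 1 in that of CLEC4C-DTR mouse 3 (Cdca3, named after its values were seen). Leaving out control mouse 1 or 3, limma called 0, with 30 and 38 of the genes at an unadjusted p below 0.05.

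Of 40 other replication genes 3 rose (7.5%, against 5.01% of all genes), 37 did not pass, and the median difference was 0.05. The share is near that of all genes. Dbf4, the activator of the Cdc7 kinase that fires origins, had 7.08, 7.61 and 7.68 in CLEC4C-DTR skin, against 6.69, 6.60 and 6.52 in control skin (log2 0.86, SE 0.15, adjusted p = 0.0203). Ticrr and Mcm10, also needed to start replication, rose by 0.49 and 0.37 (adjusted p = 0.037 and adjusted p = 0.0368). Orc4, of the origin recognition complex, differed by -0.50 and did not pass (adjusted p = 0.058). Dbf4 alone passed when control mouse 2 was left out and Orc4 alone, as a fall, when CLEC4C-DTR mouse 2 was. Leaving out CLEC4C-DTR mouse 3 or control mouse 1 or 3, limma called 0, with 9, 9 and 8 genes at an unadjusted p below 0.05.

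Of 20 E2F, MuvB and Myb regulators 2 rose (5.01% of all genes rose), both atypical E2F repressors that are themselves E2F targets. E2f7 had 7.44, 7.79 and 7.93 in CLEC4C-DTR skin, against 6.46, 7.15 and 6.69 in control skin (log2 0.96, SE 0.19, adjusted p = 0.026). E2f8 had 7.09, 7.45 and 7.67 in CLEC4C-DTR skin, against 6.64, 6.66 and 6.56 in control skin (log2 0.79, SE 0.14, adjusted p = 0.0193). The groups were apart in both genes. E2f4 and Tfdp2 differed by 0.29 and -0.41 and did not pass (adjusted p = 0.101 and adjusted p = 0.103). E2f7 and E2f8 passed again when CLEC4C-DTR mouse 1 or control mouse 2 was left out, and neither when one of the others was.

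Cyclins and kinases of G1 had a median difference of 0.02. Of 13 measured genes 2 fell and 11 did not pass (4.31% of all genes fell). Ccnd2, cyclin D2, had 10.24, 9.79 and 9.73 in CLEC4C-DTR skin, against 10.87, 10.77 and 10.94 in control skin, with no overlap (log2 -0.94, SE 0.14, adjusted p = 0.0142). Cdk7, the kinase that activates other cyclin-dependent kinases, differed by -0.40 (adjusted p = 0.0399) and cyclin D1, Ccnd1, by -0.30 (adjusted p = 0.103). Ccnd2 passed again when CLEC4C-DTR mouse 1 or 2 or control mouse 2 was left out. When CLEC4C-DTR mouse 3 or control mouse 1 or 3 was, limma called 0 genes of this list, with 3 at an unadjusted p below 0.05 each time.

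Of 19 genes on a list of cyclin-dependent kinase inhibitors, p53 targets and stress-induced genes, 11 had a higher and 8 a lower mean in CLEC4C-DTR skin. The test was passed by 5, all of which rose (26.3%, against 5.01% of all genes), 4 of them by more than 2-fold. None of the 5 was a Cdkn kinase inhibitor. Cdkn1a and Trp53, also on the list, had no probe set assigned to 1 gene symbol and were not analysed here. Gadd45a and Gadd45b, stress-induced proteins that slow the cycle, rose 2.65-fold and 2.3-fold (adjusted p = 0.0335 and adjusted p = 0.0175). Plk2 and Plk3, stress-induced relatives of Plk1, rose 2.67-fold and 2.51-fold (adjusted p = 0.0186 and adjusted p = 0.0318). Plk2 had 8.67, 9.74 and 9.42 in CLEC4C-DTR skin, against 7.83, 8.05 and 7.71 in control skin, so that mouse 2 was the highest. Plk3 had 7.69, 8.76 and 8.93 in CLEC4C-DTR skin, against 7.24, 7.11 and 7.05 in control skin. The fifth, Sesn2, rose 1.43-fold and was named after its values were seen. Cdkn1c, the inhibitor p57, also named after its values were seen, had 6.99, 6.75 and 6.78 in CLEC4C-DTR skin, against 7.2, 7.22 and 7.63 in control skin. It was lower in all CLEC4C-DTR mice and just missed the threshold (log2 -0.51, SE 0.13, adjusted p = 0.0526). It passed as a fall after a further quantile normalisation (adjusted p = 0.0477), in both filters on dim genes (adjusted p = 0.0415 and adjusted p = 0.0455) and with array weights (adjusted p = 0.0446). The other 5 measured Cdkn genes differed by -0.17 to 0.22. Leaving out CLEC4C-DTR mouse 1, 8 of the list passed, 7 as rises and Cdkn1c as a fall, in the absence of CLEC4C-DTR mouse 2 Plk2 alone did, and in that of control mouse 2 Plk2 and Gadd45b did. For the remaining mice limma called 0, with 7 or 8 genes at an unadjusted p below 0.05.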

How the data were processed

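The 6 RNA samples, one per mouse, were run on Affymetrix Mouse Gene 1.0 ST arrays. The authors deposited log2 values from RMA (background correction, quantile normalisation, probe set summary), per the series' design text, and the values, 1.60 to 13.9, show the scale. The program behind the RMA values was not named in the labels. Per the submitters' processing notes, the build was mm8. RMA removes shifts shared by most genes and compresses dim ones. Array medians were 6.17 to 6.23. With 3 arrays a group, precision is limited by their number.

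Of 35556 probe sets, 21789 had 1 symbol in the platform annotation, and the brightest of each gene gave 19938 genes. Symbols were updated through RefSeq (GRCm38.p6), where 21698 probe sets matched. No filter was applied, and no pair of arrays was identical. The groups were compared with limma 3.58.1 in R 4.3.3 (lmFit, eBayes, two-sided) on all genes together, and every adjusted p is a Benjamini-Hochberg value over these 19938 unless an alternative is named. A single gene's exact permutation test cannot go below 0.1 here. The step was tested on simulated data. Members, lists and motifs were chosen with earlier results of these data known, so lists are described and not tested. Genes named are the members, list markers where a value was needed and the 4 of smallest p in each other pathway list; others are said to be chosen after their values were seen. Alternatives were other scalings, filters on dim genes, variance moderation, array weights, probe set rules, a replicate block and single arrays left out. Figures were drawn with matplotlib 3.10.9.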

Additional observations from a re-analysis of the deposited data

How the results depend on the processing

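The median difference of S phase members was 0.15 to 0.25 (log2) under all alternatives, that of G2 and mitosis members 0.36 to 0.62, and the first minus the second -0.42 to -0.21. The counts of calls were less stable. With single arrays left out, 67 to 2617 genes passed in all, 0 to 3 S phase members, 0 to 13 G2 and mitosis members and 0 to 43 genes of the other pathway lists, lowest for all genes when control mouse 3 was left out and highest when CLEC4C-DTR mouse 1 was. When variances were not moderated across genes, limma called 0 genes in all, 0 S phase members, 0 G2 and mitosis members and 0 genes of the other lists. An unadjusted p below 0.05 was then found for 4387 genes, among them 6 S phase and 10 G2 and mitosis members. With all 35556 probe sets tested, 95 passed, with 0 S phase members (7 at an unadjusted p below 0.05), 0 G2 and mitosis members (17) and 0 genes of the other pathway lists. Array weights gave 2416 genes in all and 11 G2 and mitosis calls. Same-numbered mice of the groups were not shown to be paired (correlations of their deviations over all genes -0.06, 0.217 and 0.104); a replicate block gave 2084 genes in all, 3 S phase and 11 G2 and mitosis members, and 34 genes of the other lists. Among the members, direction turned for Pcna and Ccne2. Pcna differed by -0.14 after a further quantile normalisation and by -0.0044 with array weights. With single arrays left out it differed by -0.0277 to 0.0478, below 0 in the absence of CLEC4C-DTR mouse 1 (-0.0277), control mouse 2 (-0.0058) or control mouse 3 (-0.0012). Ccne2 differed by -0.0021 to 0.1971, below 0 only in the absence of CLEC4C-DTR mouse 3. The cause of these changes was not tested. Over the 43 members and their alternatives, 586 values kept direction and side of the threshold, 61 no longer passed, 30 newly passed and 6 turned.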

Other observations

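Genes of DNA damage checkpoints and recombination repair, many of which are E2F targets, showed no call. Limma called 0 of the 24 measured genes, against 9.32% of all genes. An unadjusted p below 0.05 was reached by 7 of the 24, near the share of all genes (27.3%). The median difference was 0.06 (log2). Clspn, which relays the signal of stalled forks, had the smallest p of them (log2 0.44, SE 0.13, adjusted p = 0.0658), and passed after median centring (adjusted p = 0.0491), after a further quantile normalisation (adjusted p = 0.0449) and with array weights (adjusted p = 0.0415). The kinase Atr differed by -0.25 (adjusted p = 0.0966) and the helicases Brip1 and Blm by 0.31 each. When CLEC4C-DTR mouse 1 was left out, Brip1 passed upward and Atm, named after its values were seen, downward.

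Subunits of the anaphase-promoting complex, the ubiquitin ligase that Cdc20 activates, showed no call. Limma called 0 of the 13 measured subunits and activators, against 9.32% of all genes. An unadjusted p below 0.05 was reached by 3 of the 13, near the share of all genes (27.3%). In CLEC4C-DTR skin 10 had a lower mean (58.2% of all genes had). Cdc23 differed by -0.35 (adjusted p = 0.0878) and Anapc13 by -0.30 (adjusted p = 0.142), while Cdc20 differed by 0.61 (adjusted p = 0.0871). Cdc23 passed when CLEC4C-DTR mouse 1 was left out (adjusted p = 0.0257).

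Among the 18 measured G2 and mitosis members with a promoter window, the 13 with a CHR had a median difference of 0.48 (log2) and the 5 without one 0.53. Birc5, with a difference of 0.68, showed none of the searched motifs in its window, and neither did Ccne1, with 0.76.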
